A study of Drosophila melanogaster with 3 samples.

Results

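The 6 fly genes His2Av, His3.3A, His3.3B, His4r, cid and BigH1 encode histones made from single genes outside the tandem histone cluster, and they were chosen by name from 17896 annotated genes of the dm6 genome build. Binding at them was measured by chromatin immunoprecipitation followed by sequencing (ChIP-seq) of CG4820, in whole Drosophila melanogaster embryos of both sexes aged 0 to 16 h. The transgenic line stably expressed CG4820 fused at its C-terminus to green fluorescent protein (GFP), and anti-GFP antibody was used for the pull-down. There was 1 group with 3 biological replicates, all of this one line and without a treated, mutant or untagged group, so the levels below are compared between genes and not between conditions. Whole embryos mix all tissues, and which cells carried the binding cannot be told apart.

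Most histones are made in S phase from a tandem cluster of near-identical gene copies. Replication-independent variants are made from genes with promoters of their own, often with introns, and give polyadenylated messages, and they replace canonical histones in chromatin outside S phase. H3.3, encoded by both His3.3A and His3.3B, is deposited at active genes. H2Av, the only H2A variant of the fly, combines roles that other animals divide between H2A.Z and H2A.X. His4r encodes a replacement H4, cid the centromeric histone H3 that marks where kinetochores form, and BigH1 a linker histone of the early embryo and germ line.

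A peak was counted for a gene when its summit fell in the gene body or within 1 kb on either side. The candidate lists held 26597 peaks in replicate 1, 27004 in replicate 2, 26145 in replicate 3 and 21656 in the pooled replicates. The authors' final list, called optimal and made by comparing peak ranks between replicates, held 4876 peaks. All 4876 were the 4876 pooled peaks of highest signal, with the same summits and signals, so an optimal peak here means a pooled signal of at least 100.83. Signal is the authors' enrichment of a peak and was ranked within its list only. Depth is unknown, since the files list peaks and no read totals.

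CG4820 peaks of the optimal list lay at His3.3A, His2Av and His3.3B and at none of His4r, cid and BigH1. The 3 of 6 genes compare with 29.6% of 13945 protein-coding genes, and with 25.5% of the 7840 protein-coding genes whose bodies are as long as those of the 6 (860 to 4147 bp). With the summit at most 500 bp from an annotated transcription start site (TSS), a window that does not grow with gene length, the count was again 3 of 6, against 19.9% of protein-coding genes. Both genes for H3.3 and the gene for H2Av were thus on the list. With 6 genes the count is a description, and no test of it was made.

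The stretches of DNA at these peaks are shown because the positions below refer to them: the summits of His3.3A and His2Av sit beside divergent gene starts, and that of His3.3B in an intron of the gene. Of the 6 genes, 5 start head to head with a neighbour within 300 bp. His3.3A is divided from CG14036 by 41 bases, His4r from put (the gene for a type II receptor of the BMP and activin pathways) by 51, His2Av from ball (the gene for a kinase that phosphorylates histone H2A) by 121, cid from cbc by 225 and BigH1 from Rad17, a DNA damage checkpoint gene, by 252. The exception, His3.3B, has no divergent protein-coding start closer than 1953 bp. Among all protein-coding genes with such a partner, 37.2% had an optimal summit at most 500 bp from their own TSS, and among the 5 histone genes it was 2.

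The bases between the divergent starts of 3 of the genes, printed on the plus strand, run as follows in dm6, from the neighbour's start to that of the histone gene. Capitals mark the sequence CGATA on either strand, which is the core of the DRE element of housekeeping promoters, and CCAAT on either strand. A run of capitals can join overlapping matches.
His3.3A gap, chr2L:5055017-5055057: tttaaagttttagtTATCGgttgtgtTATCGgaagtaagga
His2Av gap, chr3R:26866808-26866928: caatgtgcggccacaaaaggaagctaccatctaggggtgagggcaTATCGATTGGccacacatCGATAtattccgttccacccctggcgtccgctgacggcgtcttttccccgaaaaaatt
His4r gap, chr3R:14625704-14625754: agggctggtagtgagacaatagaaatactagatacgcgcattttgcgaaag
The gaps of His3.3A and His2Av, which have an optimal peak, each held 2 matches to CGATA, and the gap of His4r held 0. The gaps of cid and BigH1 are not printed, and no share over all such gaps is given, so this is no contrast of bound with unbound genes. In the wider window from 250 bp before to 50 bp after the gene start, CGATA was present at 5 of the 6 genes. These included His4r, cid and BigH1, which have no optimal peak, and left out His3.3B, which has one. For His3.3B, however, this window is at the 5' end of the gene, and the optimal summit lies 1313 bp from that end. CGATA was in 47.4% of all protein-coding promoters. The full DRE, TATCGATA, was in none of the 6 windows and in 9.36% of promoters.

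The summits themselves lay in other sequence, shown here with the 5 bases centred on the optimal summit in capitals. At His3.3A, 30 bases of the 5' untranslated region (UTR) are given. At His2Av the stretch is the whole first intron of ball, a gene of the minus strand, printed on the plus strand. At His3.3B it is the beginning of the intron that follows the exon of the middle of 3 TSSs, on the minus strand, which is that of the gene.
His3.3A summit, chr2L:5055134-5055163: tcacactgagcagACGCGcgtaaaccaccc
His2Av summit, chr3R:26866656-26866775: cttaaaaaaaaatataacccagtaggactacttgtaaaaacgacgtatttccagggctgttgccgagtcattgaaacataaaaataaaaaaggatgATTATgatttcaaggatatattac
His3.3B summit, chrX:9155256-9155403: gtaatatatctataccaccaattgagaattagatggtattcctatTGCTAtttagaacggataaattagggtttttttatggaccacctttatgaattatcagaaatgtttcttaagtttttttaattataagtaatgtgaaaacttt
Over 101 bp centred on the summit, A and T made up 52.5% at His3.3A, 61.4% at His2Av and 70.3% at His3.3B, against a median of 68.3% over all optimal summits. His3.3A was among the poorest in A and T, since 93.7% of optimal summits had as much or more. In those windows CGATA was present at His2Av (15.2% of optimal summits), TCAGT at His3.3A (18.7%) and CCAAT at His3.3B (17.8%). In none of the 3 were TATCGATA (1.74% of optimal summits), the TATA box TATAAA (23.0%) or the GAGA repeat GAGAG (8.74%). AGGTGGCG, the core of the CTCF site, was also absent (0.841% of optimal summits). With shares this low, absence from 3 summits does not set these peaks apart.

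His3.3A (FBgn0014857, dm6 2L, 5055058 to 5056149, plus strand) had the strongest peak of the 6 genes. Its optimal peak covered 5055011 to 5055247 with a signal of 434 and rank 502 of 4876, and ran 237 bp, where 3795 of the 4876 optimal peaks had the same width of 416 bp. The summit at 5055149 lay in the 5' UTR, 15 bp downstream of the second of 2 annotated TSSs and 91 bp downstream of the first. The replicate summits were 15 bp downstream of that TSS in replicate 1, 14 bp in replicate 2 and 21 bp in replicate 3, on average 16.7 ± 3.79 bp (SD, n = 3). This range of 7 bp was narrow, with 6.39% of the 3553 optimal peaks supported by every replicate having an equal or smaller one and a median of 42 bp. CG14036 starts 133 bp from the summit on the other strand.

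The His3.3A peak had a signal of 154 in replicate 1, 165 in replicate 2 and 122 in replicate 3, each on the scale of its own list. Its ranks there were 372, 531 and 622. Expressed as a share of each list, the ranks were 1.40% in replicate 1, 1.97% in replicate 2 and 2.38% in replicate 3, on average 1.91% ± 0.492 (SD, n = 3). All 3 libraries thus placed it near the top. The one other candidate in the His3.3A window, in replicate 3 only, lay in the 3' UTR at rank 15757.

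His2Av (FBgn0001197, 3R, 26866929 to 26869220, plus strand) came next, and its peak was nearer to the start of ball than to its own. The optimal peak covered 26866546 to 26866961 with a signal of 316 and rank 918. Its summit at 26866754 was 175 bp upstream of the single His2Av TSS and 53 bp downstream of the outer of 2 ball TSSs, which faces His2Av, inside the first ball intron. It was 129 bp upstream of the other ball TSS, so it sat between the 2 starts of that gene. The peak interval reached across both gene starts and the gap between them.

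The replicate summits at His2Av were 146, 237 and 142 bp upstream of the TSS in replicates 1, 2 and 3, a mean of -175 ± 53.7 bp (SD, n = 3). Replicates 1 and 3 placed the summit in the ball 5' UTR and replicate 2 in the ball intron. The range of 95 bp was wide: 84.9% of supported optimal peaks had an equal or smaller range. The signals were 84.0 in replicate 1, 119 in replicate 2 and 106 in replicate 3. The ranks were 1216 in replicate 1, 999 in replicate 2 and 809 in replicate 3, or 3.79% ± 0.743 of the list (SD, n = 3). Weak candidates also appeared once in replicate 2, in coding sequence of the neighbour SPARC (rank 10876), and once in replicate 3, in His2Av coding sequence (rank 25037).

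**Figure D1:**
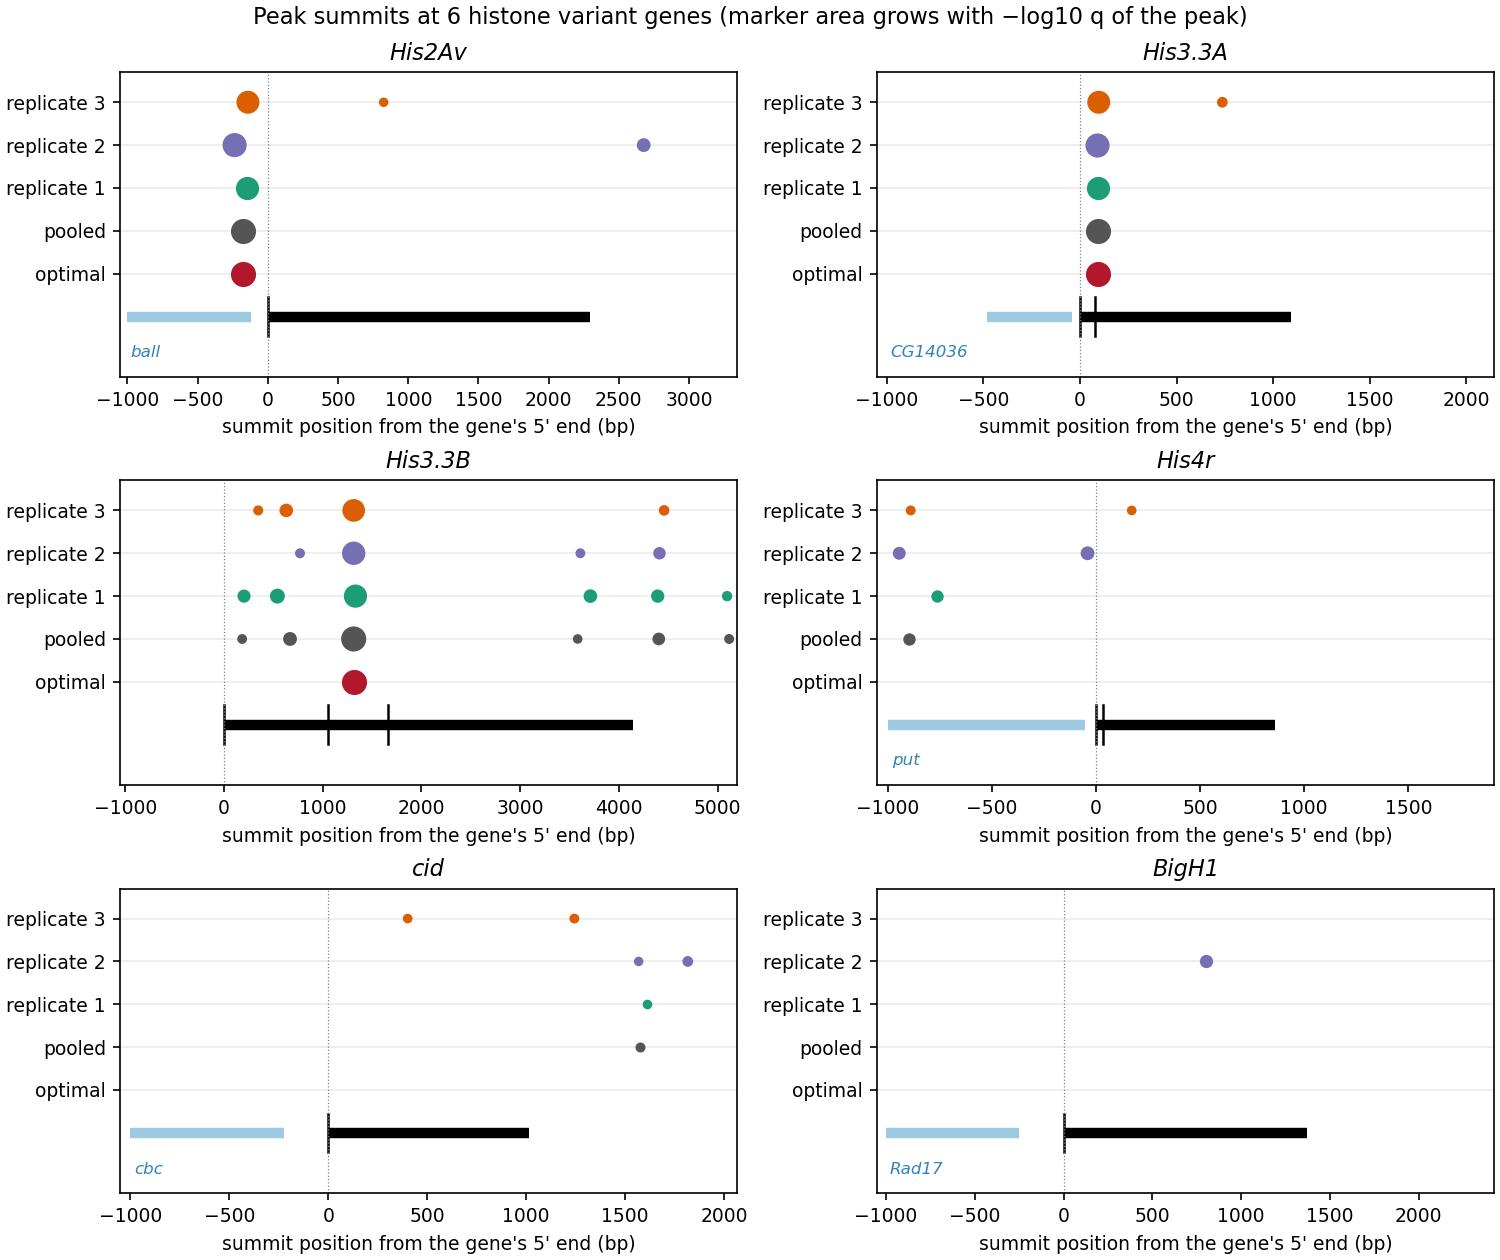
Summit positions in base pairs from the 5' end of each gene (x axis, positive downstream) in the 5 peak lists (rows), with the gene body in black, annotated TSSs as ticks and a head-to-head neighbour in blue. Marker area grows with the −log10 q-value of the peak. The large markers sit near the start of His2Av and His3.3A and inside His3.3B, while His4r, cid and BigH1 carry small markers only. Some of these recur between lists: at His4r in the put intron in the pooled list and all 3 replicates, and at cid in the bbc 3' UTR at 1573, 1610 and 1568 bp in the pooled list and replicates 1 and 2.

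His3.3B (FBgn0004828, X, 9152523 to 9156669, minus strand) had a weaker peak inside the gene, among its 3 alternative starts. The optimal peak covered 9155148 to 9155563 with a signal of 145 and rank 3036 of 4876, in the lower part of the list. Its summit at 9155356 lay in an intron, 257 bp downstream of the middle TSS, 344 bp upstream of the most downstream one and 1313 bp from the 5' end of the gene. The summit was 257 bp from the middle TSS in replicates 2 and 3 and 275 bp in replicate 1, a mean of 263 ± 10.4 bp (SD, n = 3). The replicates differed by at most 18 bp, and 21.3% of supported peaks had an equal or smaller range.

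The signals of the His3.3B peak in replicates 1, 2 and 3 were 51.2, 53.7 and 42.8. Its ranks were 2627 in replicate 1, 3394 in replicate 2 and 3233 in replicate 3, or 11.6% ± 1.50 of the list (SD, n = 3). The intron that holds it was not the only place with candidates. The pooled list had 6 candidate summits in the window, the replicates 6, 4 and 4. Of the 7840 protein-coding genes with bodies of 860 to 4147 bp, 0.0893% had 6 or more in the pooled list. The His3.3B window is 6147 bp, the longest of the 6 genes, and its body of 4147 bp is the upper limit of that comparison. A longer window can hold more summits, so the share is not matched to the length of His3.3B. The count was also singled out after it was seen.

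The other 5 pooled candidates at His3.3B had signals of 34.9 to 55.0 and −log10 q-values of 0.0384 to 0.722, both below those of the optimal peak. In the gene's own sequence 2 lay in introns (183 bp downstream of the first TSS and 388 bp upstream of the middle one) and 1 in the 3' UTR. Another was in the intergenic stretch between the 3' ends of His3.3B and Bap111, the gene of a Brahma remodelling complex subunit, and the last in Bap111 coding sequence. A candidate in the intergenic stretch was present in all 3 replicates, at ranks 9940, 13071 and 16128. So was one in the intron upstream of the middle TSS, at ranks 8192, 22448 and 9226 and 516, 287 and 426 bp from that TSS in replicates 1, 2 and 3.

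His4r (FBgn0013981, 3R, 14625755 to 14626614, plus strand) had candidates but no optimal peak. The pooled candidate had a signal of 48.6, rank 11887 of 21656 and a −log10 q-value of 0.450, and it lay in an intron of put, 895 bp upstream of the first His4r TSS. Replicates 1, 2 and 3 had a summit in that intron too, 765, 944 and 889 bp upstream, at ranks 11669, 12280 and 20688. At the His4r start itself replicate 2 had a summit 40 bp upstream (rank 10871) and replicate 3 one 139 bp downstream of the second TSS (rank 24154), while replicate 1 and the pooled list had none there. The nearest optimal summit was 27653 bp from the gene start.

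The centromeric histone gene cid (FBgn0040477, 2R, 13485617 to 13486631, plus strand) came last, by the mean rank of the strongest candidate, among the 5 genes with a candidate in every replicate. Its pooled candidate had a signal of 37.3, rank 18183 and a −log10 q-value of 0.0905, and it lay past the 3' end of cid, in the 3' UTR of the neighbour bbc. The strongest candidate ranked 24515 in replicate 1, 17931 in replicate 2 and 21222 in replicate 3, or 79.9% ± 12.9 of the list (SD, n = 3). No list had a summit within 400 bp of the cid start, and the closest, in replicate 3, was 401 bp downstream in coding sequence. The nearest optimal summit was 2471 bp from the start.

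BigH1 (FBgn0038252, 3R, 14663450 to 14664822, plus strand) had 1 candidate in all 5 lists together. It was in replicate 2, 800 bp downstream of the TSS in coding sequence, with rank 11677 and a −log10 q-value of 0.609. Replicates 1 and 3 and the pooled list had 0 summits in the window, and the nearest optimal summit was 6185 bp from the start. The lists give no value below their own minimum, so weaker enrichment there is not visible.

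**Figure D2:**
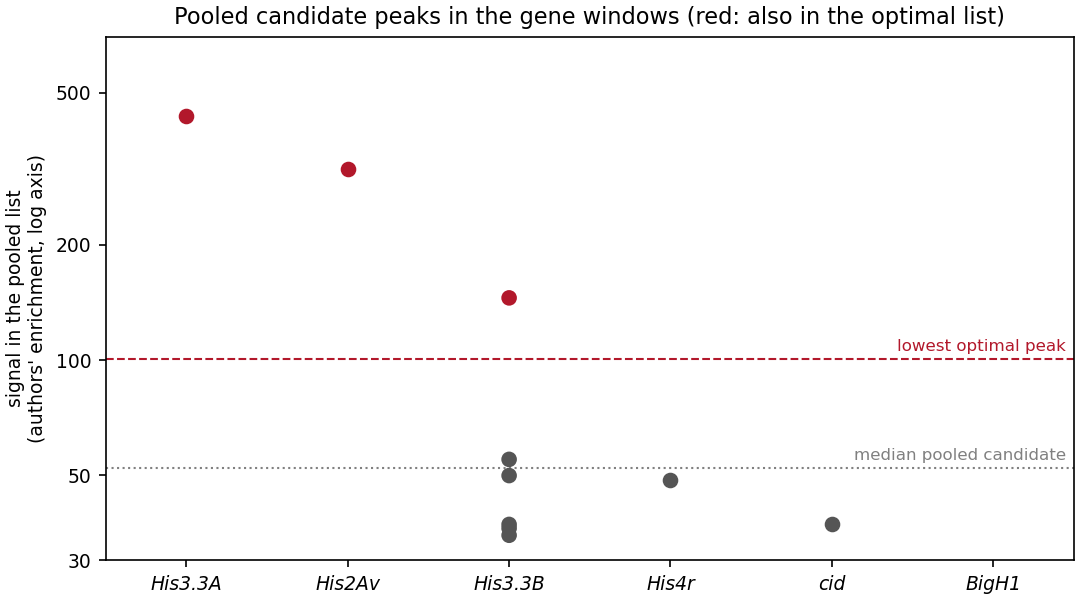
Signal of each pooled candidate in the window of each gene (y axis, the authors' enrichment on a log axis), in red where the peak is also in the optimal list. The 3 red peaks, at 434, 316 and 145, lie above the lowest optimal signal of 100.83, and the highest of the other 7 candidates, at His3.3B, is at 55.0; BigH1 has none.

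Having some candidate was common among genes of this length, and the counts below are descriptions with no test. A pooled candidate fell in the windows of 5 of the 6 genes, against 57.8% of protein-coding genes of similar length. The count was 5 of 6 in replicate 1 (65.2% of such genes), 6 of 6 in replicate 2 (65.0%) and 5 of 6 in replicate 3 (63.4%). In every replicate at once it was 5 of 6, against 47.2%. For His4r and cid this rested on the flank, since with 500 bp on each side only the 3 genes with an optimal peak had a candidate in the pooled list or in every replicate.

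The optimal peaks of the histone genes were supported in each library. The optimal list was made from these same 3 libraries, so this support is not an independent check. A replicate supported a peak if at least 1 bp of it overlapped one of that replicate's 4876 peaks of highest signal. All 3 peaks were supported by 3 of 3 replicates, as were 72.9% of all optimal peaks. Peaks lower in the list lie nearer to that limit, and with a limit of 2438 peaks His3.3B was no longer supported by every replicate.

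The order of the genes was the same in every replicate for the strongest candidates. His3.3A was ahead of His2Av in 3 of 3 replicates (mean ranks of 1.91% and 3.79% of the list), His2Av ahead of His3.3B (11.6%) in 3 of 3, His3.3B ahead of His4r (54.4% ± 21.5, SD, n = 3) in 3 of 3, and His4r ahead of cid (79.9%) in 3 of 3. For His3.3A and His2Av the difference was 1.87 ± 1.24 percentage points (SD, n = 3), close to the spread over replicates, and in replicate 3 the ranks were 622 and 809. Over the 10 pairs of the 5 genes with a candidate in each replicate, an exact two-sided permutation test within replicates gave p = 0.25 for each pair, which is the smallest that 3 replicates allow and stays 0.25 after Benjamini-Hochberg adjustment. The strongest candidate of His4r varied most in rank, from 40.3% in replicate 2 to 79.1% in replicate 3, but it was not 1 site. In replicate 2 it lay 40 bp upstream of the His4r start, and in replicates 1 and 3 in the put intron. At cid it lay 1610, 1816 and 1243 bp downstream of the TSS in replicates 1, 2 and 3. For these 2 genes the spread and the order therefore refer to the window and not to a single peak.

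**Figure D3:**
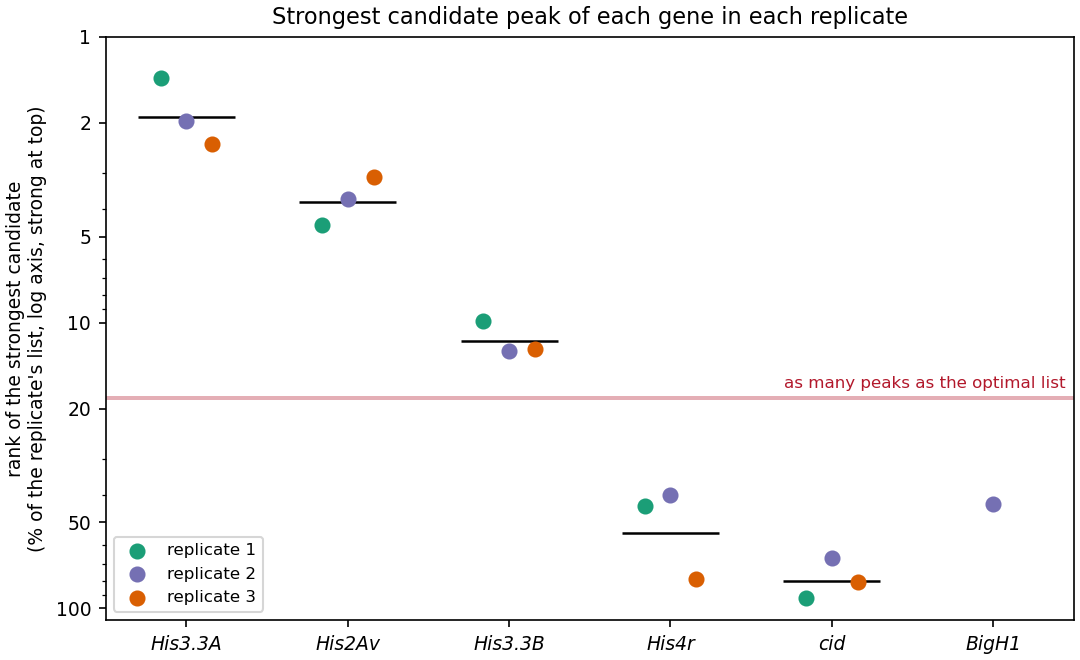
Rank of the strongest candidate of each gene as a percent of the replicate's list (y axis, log scale, strong peaks at the top), with 1 point per replicate and a line at the mean where all 3 replicates have a value. The red band marks the rank equal to the length of the optimal list. His3.3A, His2Av and His3.3B lie above it in every replicate and the others below it, with BigH1 present in replicate 2 only.

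Genes whose promoter peak had the most similar ranks were sought by the Euclidean distance between rank percentages in the 3 replicates, over 2755 protein-coding genes with an optimal promoter peak found in each replicate. The nearest to His2Av was ball and the nearest to His3.3A was CG14036, at a distance of 0 because they share the peak. The next were CG4860 for His2Av (0.220 percentage points, optimal rank 988) and CG4297 for His3.3A (0.128, optimal rank 479). His3.3B was nearest to p53, the gene of the tumour suppressor transcription factor (0.644, rank 2907), and to Trf4-1 (0.785, rank 2868).

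The replication-dependent histone genes had no peak of any kind. The tandem cluster on 2L, with 111 annotated genes over 126729 bp including 1 kb at each end, held 0 summits in all 5 lists, against an average of 17.4 pooled summits per 100 kb of 2L. The nearest pooled summit lay 17318 bp from the outermost cluster gene. Of the cluster's 31-base words, 99.0% occur again in the genome, against 0 to 0.785% in the windows of the 6 histone variant genes. The sources used here do not say how reads that map to several places were treated, and its part in the empty cluster was not tested.

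Genes that place the variants into chromatin were bound at some steps. Of 9 genes for H3.3 deposition, 4 had an optimal summit at the promoter, meaning at most 500 bp from a TSS, where 19.9% of protein-coding genes did. These were Daxx, a chaperone of H3.3 (signal 246, rank 1436), dre4, a subunit of the histone chaperone FACT (242, rank 1469), yem, the partner of the chaperone Hira (215, rank 1741), and XNP, the fly ATRX remodeller (108, rank 4459). All replicates supported the first 3, and 1 of 3 supported XNP. Hira itself had no pooled candidate at its promoter.

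Of 18 genes of H2Av exchange and related remodellers, 5 had an optimal promoter summit, against 19.9% of protein-coding genes. Ino80, an ATPase of a remodelling complex (543, rank 311), and pont, a helicase-like ATPase (489, rank 398), were stronger than His2Av. The ATPase gene dom, whose product exchanges H2Av (136, rank 3318), Act87E, an actin gene (114, rank 4149), and MrgBP (113, rank 4210) were weaker. MrgBP and Act87E were supported by 1 and 2 replicates. Neither of the centromere genes cal1, which encodes the loading factor of cid, and Cenp-C had an optimal promoter summit, and both had a pooled candidate there. A pooled candidate at the promoter was present at 47 of the 63 genes over all lists. The share of all protein-coding genes with one is not given here, so these candidates cannot be weighed against it. Replication-coupled deposition gave 1 of 8 genes, that of the large subunit of the chaperone CAF-1 (FBgn0030054, signal 104, rank 4676, supported by 1 replicate), and linker histone and linker-like genes 0 of 4, each set beside the same 19.9%. These 4 were D1, HmgZ, HmgD and a His1 copy of the tandem cluster, in which no list had a summit.

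Genes that make histone messages were bound in 3 of 10 cases, against 19.9% of protein-coding genes. They were Cpsf100, of the machinery that cleaves histone messages (224, rank 1632), mxc, the scaffold of the histone locus body (152, rank 2863), and Slbp, whose product binds their stem-loop (110, rank 4398, supported by 1 replicate). Over all lists together 15 of 63 genes (23.8%) were bound. The lists are short, and no list was tested.

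**Figure D4:**
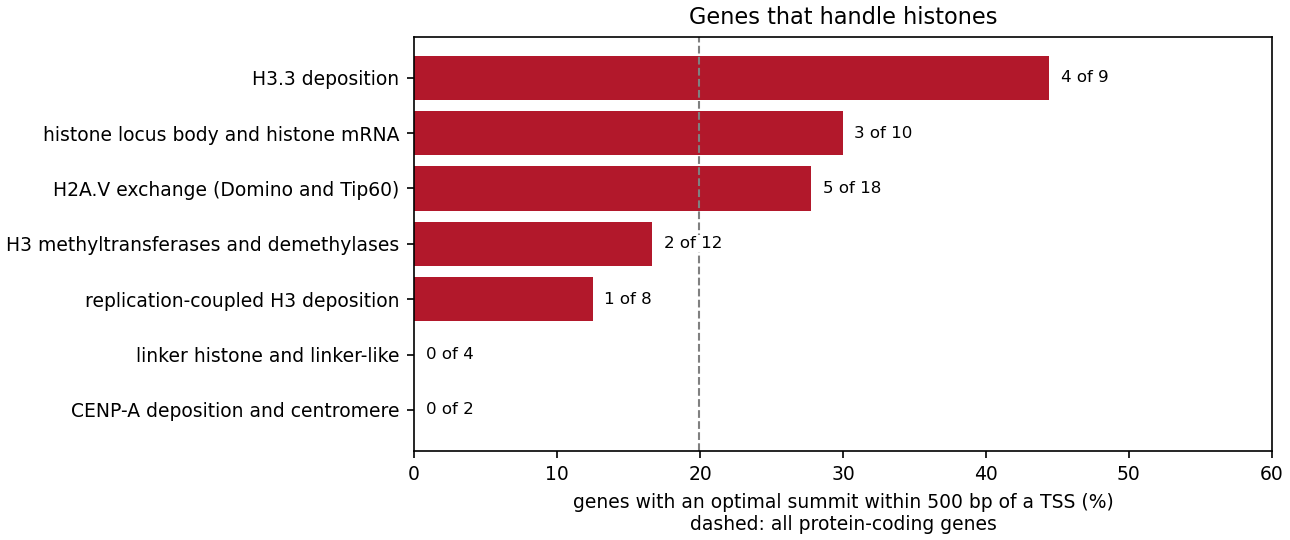
Percent of the genes of each list with an optimal summit at most 500 bp from a TSS (bars, with counts), beside the 19.9% of all protein-coding genes (dashed line). H3.3 deposition is highest with 4 of 9, and the CENP-A and linker lists have 0 of 2 and 0 of 4.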

How the data were processed

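Peak lists in narrowPeak format were used as deposited, in dm6 coordinates. Per the deposited listings, the authors made each replicate's list from that replicate's alignment together with a control. The pooled list used the 3 alignments and the same kind of control, and the optimal list followed from comparing the 4 lists by the irreproducible discovery rate. The sources used here name no aligner, peak caller or rate limit. The signal in the deposited lists is the authors' enrichment per peak, on the scale of each list. The −log10 q-value in the deposited lists has a ceiling and is constant over the optimal list. The dm3 lists were not used, because the annotation was dm6. No read totals are given, so no counting error is included.

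Summits were column 2 plus column 10, printed 1-based. Gene models were Ensembl release 115 (BDGP6) on the 6 main arms without pseudogenes and transposable elements, and sequence was the RefSeq genome of that assembly. Counts, distances and ranks are descriptions with mean ± SD over 3 replicates; the exact permutation test of the order of 2 genes was added to that plan. The replicates are labelled biological, and all are of 1 line. The members, gene lists and motifs were chosen with earlier results of these data known. Of the related genes 1 entry, ubn, was not found. Named are the 6 genes, part of their neighbours, the most similar genes and up to 4 bound genes per list by signal. Not described above are Nepl3, which overlaps His3.3A, and the flanking genes Rpn11 (His3.3A), Ost48 (His3.3B), CG7886 (His4r) and Meltrin (BigH1). MrgBP and the related genes named without an optimal promoter peak were added after their values were seen. The latter are Hira, cal1, Cenp-C, the 4 linker and linker-like genes and 8 H3 methylation enzymes. Motifs were sought on both strands. The window steps were checked on simulated peaks. The tools were matplotlib 3.10.9, SciPy 1.17.1, pandas 2.3.3 and NumPy 2.4.6 under Python 3.11.15.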

Additional observations from a re-analysis of the deposited data

How the results depend on the processing

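Of 53 alternative values for 16 results, 46 stayed within 1.5 times the count or within the spread over replicates. This tally is lenient and partly fixed in advance. A count that fell from 3 to 2 is still within 1.5 times. A mean rank without 1 of 3 replicates cannot leave the SD of those replicates that served as its limit. Ranks in the pooled list had to equal those in the optimal list, which is its top part. The optimal count of 3 genes fell to 2 with the gene body alone or with each summit given to its nearest TSS (both without His2Av, whose summit is nearer to ball), with the upper 0.5 of the list by signal, and within 250 bp of a TSS (both without His3.3B). The count of 5 genes with a pooled candidate, and that with a candidate in every replicate, became 3 with 500 bp on each side and 2 with the gene body alone. By the peak midpoint the His3.3A peak lay at -5 bp, upstream of its nearest TSS, as its interval is asymmetric about the summit. From the 5' end of the gene the distance was 91 bp at His3.3A and 1313 bp at His3.3B. Without 1 replicate, support in every remaining replicate stayed at 3 peaks, which was fixed in advance because every replicate supported all 3. Mean ranks without 1 replicate ranged from 1.68 to 2.17% for His3.3A, 3.40 to 4.14% for His2Av, 11.1 to 12.5% for His3.3B, 42.1 to 61.5% for His4r and 73.8 to 86.7% for cid. The dm3 lists were not run, for want of a dm3 annotation. No paired analysis was possible because there is only 1 group. Depth is unknown, so absence from a list cannot be weighed against it.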

Other observations

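Enzymes that write or erase methyl marks on histone H3 at active genes were bound in 2 of 12 cases, against 19.9% of protein-coding genes. NSD, encoding an H3K36 methyltransferase, had an optimal promoter peak with a signal of 163 and rank 2617, and Utx, encoding an H3K27 demethylase, one of 152 and rank 2881. Both were supported by all 3 replicates. The other 10 genes had none. Of these, 8 (ash1, Set2, trr, trx, upSET, Kdm2, Kdm4B and Kdm5) had a pooled candidate within 500 bp of a TSS. Over all lists 47 of the 63 genes had such a candidate. The share of all protein-coding genes with one is not given here.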
